A study of Mus musculus with 20 samples.

Results

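The 8 libraries described here were made from 18S ribosomal RNA of cells that received no dimethyl sulfate (DMS), and they are 8 of the 20 samples of the series. They were chosen by the target and treatment named in the deposited table, leaving out the untreated libraries of a separate manganese experiment. The study read 18S rRNA by reverse transcription in DMS-treated and untreated cells and scored, at each nucleotide, the fraction of cDNA ends (stops) and the fraction of mismatched reads (mutations). The cells were female mouse embryonic fibroblasts of the strain given as an F1 of 129S1/CastEiJ x 129S1, grown on duplicate plates, and RNA came from the pellet left after homogenised cells were spun down.

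By the labels, the 8 samples are 2 each of SSIII (a reverse transcriptase used at 55 °C), AMV (at 42 °C), TGIRT-II (a group II intron enzyme, at 60 °C) and "Zhao", whose meaning and temperature the labels do not give. All of them share the same 18S primer set, adaptor ligation and PCR. The 8 matched treated samples differ by 0.5% DMS on the cells for 5 min. The names in the table show neither enzyme nor replicate letter, so the libraries are called 1 to 8 in the order of those names and no value is assigned to an enzyme. The names come in 4 runs of consecutive numbers with 2 untreated libraries each, called name pairs here (1 and 2, 3 and 4, 5 and 6, 7 and 8). Where nothing says that 2 libraries came from separate plates, the spread between them may be technical.

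Ribosomal RNA carries natural modifications: pseudouridines, ribose methylations and a few modified bases. Reverse transcriptase copies RNA from its 3′ side, and a base whose pairing face is blocked can end the cDNA or be copied with the wrong nucleotide, while pseudouridine and ribose methylation usually leave little mark under ordinary conditions. In mammalian 18S rRNA the best known block is a hypermodified uridine, m1acp3Ψ, in the decoding region of the small subunit, usually numbered 1248. A cDNA that ends at a modified base usually stops just before it, and no source used here says whether the table moved stops onto the base. The table gives positions without bases, so no base is named for any site.

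Values ran over 1776 of 1840 positions with both readouts in all 8 libraries. The files hold no read counts, so the depth is unknown and no counting error can be given for any value. As a rough guide to thin coverage, the share of positions at exactly 0 is used: 3.21 to 26.6% for stops and 1.86 to 33.7% for mutations. Libraries 2 and 3 were the highest, at 25.2 and 26.6% for stops and 33.7 and 27.8% for mutations. No 2 of the libraries held identical stop values in 28 comparisons.

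The untreated RNA was quiet at most positions. The median stop fraction of a library lay between 0.0955 and 0.269%, and the median mutation fraction between 0.105 and 0.366%. Signal gathered in few places: the 10 highest positions held 17.4 to 36.1% of a library's summed stops and 15.4 to 34.9% of its summed mutations. Library 4 had the most positions with stops of at least 5% (73), library 3 had 44, and library 7 had the fewest (8). For mutations the counts ran from 1 in library 4 to 14 in library 6. The highest value of any library reached 5% at 5.8% of positions for stops and at 1.24% for mutations.

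**Figure D1:**
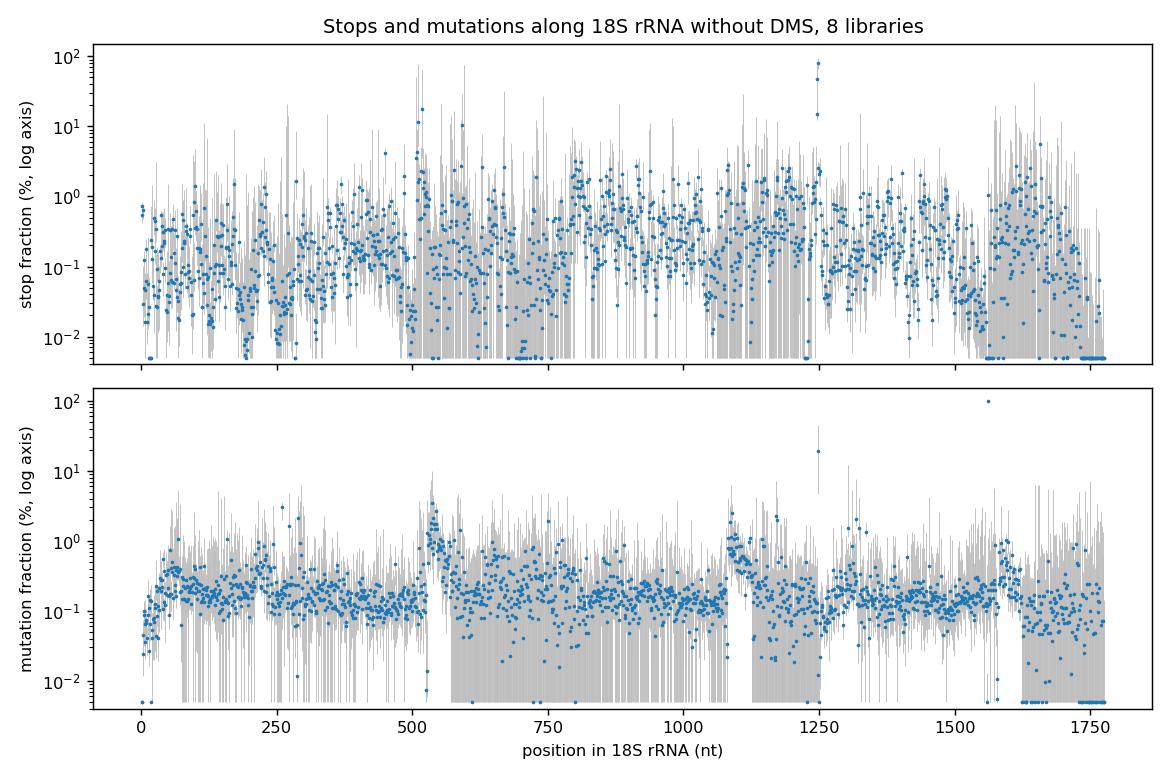
Stop fraction (top) and mutation fraction (bottom) at each of 1776 positions of 18S rRNA without DMS, in percent on log axes. Dots are the median of the 8 libraries, grey lines run from the lowest to the highest library, and values under 0.005 are drawn at 0.005. The cluster of dots at 1246 to 1248 leads the stops, and a single dot near 100% at 1561 leads the mutations.

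Only 4 positions stopped reverse transcription in at least 5% of events in every library, 0.225% of those measured: 1248, its neighbours 1247 and 1246, and 510. Position 1248 is the number usually given to the hypermodified uridine. Its stop fraction was 76.1, 82.9, 94.2, 94.9, 77.4, 66.2, 82.3 and 78.1% in libraries 1 to 8, with a median of 80.2%. It was the highest stop of the whole RNA in 7 libraries and the second highest in library 8. The spread was 28.7 points, with libraries 3 and 4 above the rest and library 6 lowest.

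The position before it, 1247, split the libraries into a high and a low group. Stops there were 68.8, 70.4, 67.4 and 74.4% in libraries 1 to 4 and 27.7, 13.2, 16.2 and 13.1% in libraries 5 to 8. The groups did not overlap, and libraries 1 to 4 also share the beginning of their names. At 1246 the same libraries were alike: 15.1, 14.7, 14.0, 18.6, 15.3, 12.2, 19.5 and 15.9%. At the 3′ neighbour 1249 the values were 3.11, 2.74, 2.55, 2.55, 2.59, 3.01, 2.40 and 2.52%, the narrowest relative spread (1.30 times from lowest to highest) of the 34 positions with at least 1% in every library (1.91% of all). Stops at 1245 were back to between 0.488 and 5.28%, with libraries 3 and 4 highest. Positions 1246 to 1248 together held 9.55 to 19.9% of a library's summed stops.

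Position 510, the last of the 4, was present everywhere at very different strength. Its stop fraction was 10.6, 9.15, 21.7, 5.26, 12.4, 8.31, 78.9 and 78.8% in libraries 1 to 8. Libraries 7 and 8 stood far above the others, and in library 8 this was the strongest stop measured. Values of libraries 3 and 4 rest on thin data, since 43.1% of the stop values within 25 nt were exactly 0 in each of them, against 25.5% in library 2 and at most 1.96% in the others. At a floor of 2% in every library, 518, 591 and 1249 joined the list, making 7 positions (0.394%).

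Mutations gave a single site above 5% in every library, 0.0563% of positions: 1561. The mutation fraction there was 99.7, 99.6, 99.9, 99.7, 98.3, 98.4, 99.9 and 99.9%, so nearly every read was scored as mutated in all 8 libraries. Stops at the same position were 0.796, 0, 0, 2.65, 2.14, 1.47, 0.974 and 1.15%. The stop readout was sparse around this position. At 1559 and 1560 stops were exactly 0 in all 8 libraries. Within 25 nt of 1561, 47.1, 52.9 and 29.4% of stop values were 0 in libraries 2, 3 and 4. Low stops at 1561 are therefore thinly measured there. Next to 1561, mutations at 1562 lay between 0.0746 and 1.09% and at 1560 between 0 and 0.0129%, so the mutation signal covered 1 nucleotide. Whether the reference base matches the sequence of these cells at 1561 was not tested.

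At a floor of 2% there were 3 mutation positions (0.169%): 1561, 1248 and 544. Mutations at 1248 were 8.24, 8.55, 5.97 and 4.59% in libraries 1 to 4 and 30.3, 45.0, 32.0 and 38.4% in libraries 5 to 8. The 4 lower values belong to the same libraries that had the higher stops at 1247. Whether the 2 splits are linked was not tested. Within 25 nt of 1248, 29.4, 52.9 and 29.4% of mutation values were 0 in libraries 2, 3 and 4. In the other libraries at most 3.92% were. Position 1248 had rank 2 among mutations in 7 libraries and rank 3 in library 4, whose value of 4.59% is the reason it misses the floor of 5%. At 544 the values were 2.81, 2.77, 2.24, 2.19, 3.43, 3.37, 2.46 and 2.56%, a much flatter set.

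**Figure D2:**
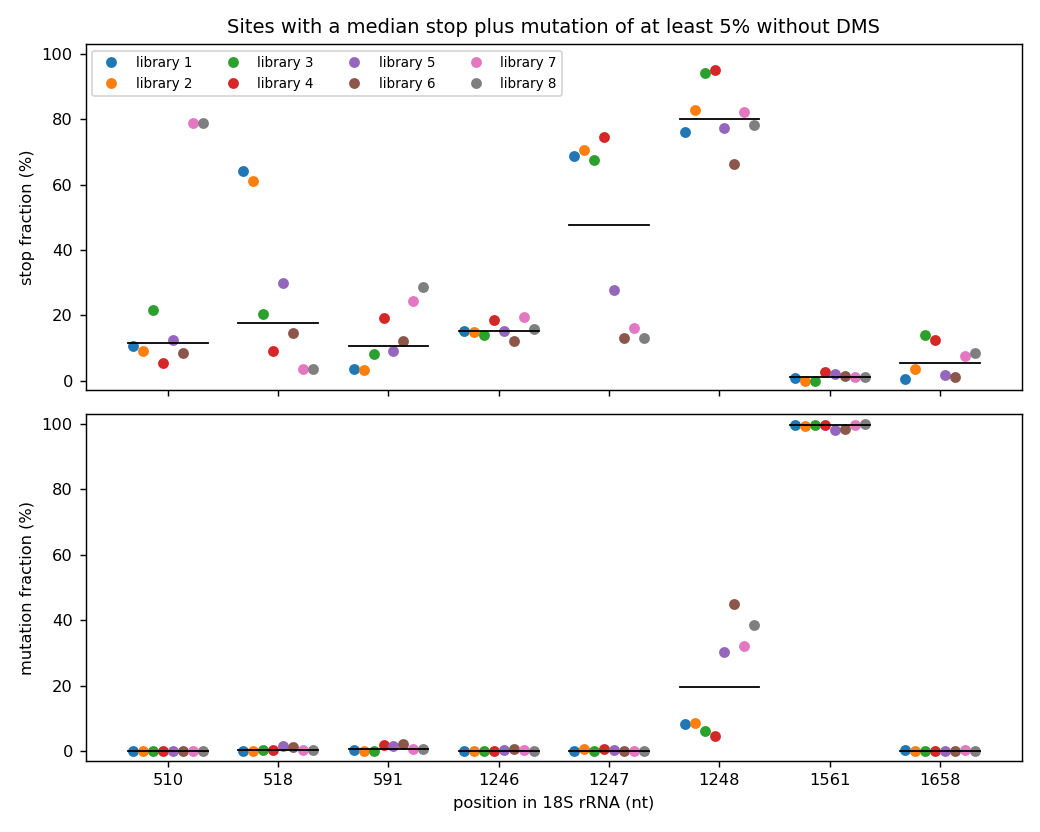
Stop fraction (top) and mutation fraction (bottom) in percent at the 8 positions whose median stop plus mutation was at least 5%, with 1 point per library and a bar at the median. Stops lead at 510, 518, 591, 1246, 1247 and 1658, mutations fill 1561, and 1248 shows both, with libraries 5 to 8 at 30.3 to 45.0% mutations.

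Most of the strongest sites were read mainly as stops, 1 as mutations and 1, by the fractions as given, as both. Over the 8 positions whose median sum of stop and mutation reached 5%, the mutation part is the mutation fraction divided by that sum. The part was small at 6 of them, with medians over libraries of 0.396% at 1247, 0.615% at 1246, 0.730% at 510, 1.04% at 1658, 3.27% at 518 and 3.51% at 591. Single libraries were higher, with 33.0% at 1658 in library 1 and 13.6 and 15.1% at 591 in libraries 5 and 6. The sum at 1658 in library 1 was only 0.655%, and 37.3% of its mutation values within 25 nt were 0. The median part was 98.9% at 1561. By its median, position 1248 alone lay between, at 18.9%, and ranged from 4.61% in library 4 to 40.5% in library 6.

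Per library, the median part over the 8 sites was 2.61, 0.422, 0.156, 1.57, 6.20, 6.13, 2.36 and 1.71% in libraries 1 to 8, highest in libraries 5 and 6. The low parts of libraries 2 and 3 rest on thin mutation data. Their mutation values at 591, 1246 and 1658 were exactly 0. Within 25 nt of these sites, 33.3 to 90.2% of their mutation values were 0. The sum of both fractions at 1248 exceeded 100% in 5 libraries and reached 116% in library 8, so they are not exclusive parts of 1 total. The part is therefore a ratio of 2 readouts and not a share of molecules. With mutations at 1248 multiplied by 1 minus the stop fraction, its part had a median of 4.49%. The values were 2.53, 1.73, 0.367 and 0.245% in libraries 1 to 4 and 8.12, 18.7, 6.45 and 9.74% in libraries 5 to 8. Whether 1248 counts as a site of both readouts thus depends on denominators that the sources used here do not give. With a lower floor of 2% for the sum, 72 positions qualified. Of those, 32 had a mutation part under 10%, 9 had over 90% and 31 lay between.

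The lists of leading positions overlapped in few places. The 50 positions with the highest median stop and the 50 with the highest median mutation had 4 in common, 8% of each list, where a list of 50 holds 2.82% of all positions: 577, 1082, 1173 and 1248. Position 1173 showed stops of 1.60, 1.81, 1.10, 1.54, 12.0, 7.45, 2.22 and 2.02% beside mutations of 2.16, 2.70, 1.82, 0.755, 4.06, 4.25, 1.25 and 1.56%, with libraries 5 and 6 highest in both. At 1082 stops lay between 1.37 and 3.19% and mutations between 0.573 and 4.07%. At 577 mutations were 0 in libraries 3 and 4 and between 0.913 and 1.44% in the others. Libraries 2, 3 and 4 are thinly measured at these 3 sites. Within 25 nt of 1173, 60.8, 86.3 and 47.1% of their mutation values were 0, and near 577 29.4, 51.0 and 51.0%. Near 1082, 37.3, 86.3 and 45.1% of their stop values were 0.

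**Figure D3:**
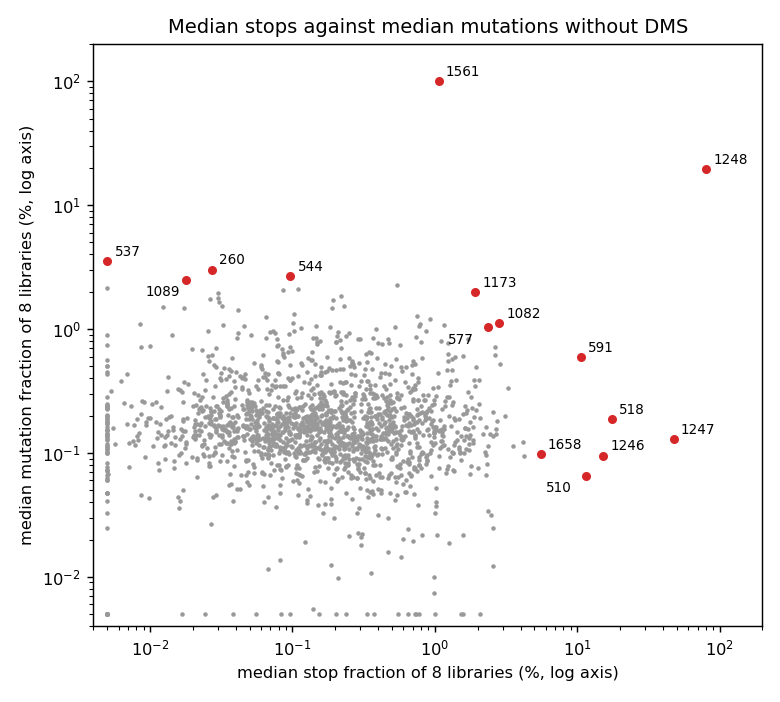
Median mutation fraction against median stop fraction of the 8 libraries at 1776 positions, both in percent on log axes, with medians under 0.005 drawn at 0.005. Red points with position numbers are the 8 sites with a median sum of at least 5%, the 4 shared leading positions and the 6 highest medians of mutation. Of the 8 sites, 6 are high on the stop axis only, 1561 leads the mutations and 1248 is high on both.

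Mutations of at least 1% in every library were found at 13 positions (0.732%). Their median stop fraction exceeded the median of all positions, 0.153%, at 4 of the 13. Conversely, at 14 of the 34 steady stop sites the mutation fraction exceeded the all-position median of 0.157%, and at 3 it reached 1%. Some mutation sites varied less across libraries, such as 260 (1.81 times from lowest to highest) and 1089 (1.69 times). At 260 the values were 1.97, 2.74, 2.92, 2.68, 3.09, 3.57, 3.19 and 3.49%, and at 1089 they were 3.09, 2.63, 2.10, 1.99, 3.36, 3.05, 2.33 and 2.37%, while median stops were 0.0270 and 0.0177% at these positions.

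Others varied more between libraries. At 1304 mutations were 1.48, 1.23, 1.41, 1.12, 11.6, 12.0, 2.02 and 1.61%, and at 537 they were 4.12, 4.00, 2.00, 1.59, 9.83, 9.55, 2.59 and 3.02%. Position 1319 gave 2.15, 1.99, 1.76, 1.61, 7.70, 7.50, 2.48 and 2.01%. In each case libraries 5 and 6 stood above all the rest, as they did at 9 of the 13 steady mutation sites and at 54.8% of all positions. The other positions of this list, 539, 543, 1085, 1323 and 1337, had medians from 1.32 to 2.15%.

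**Figure D4:**
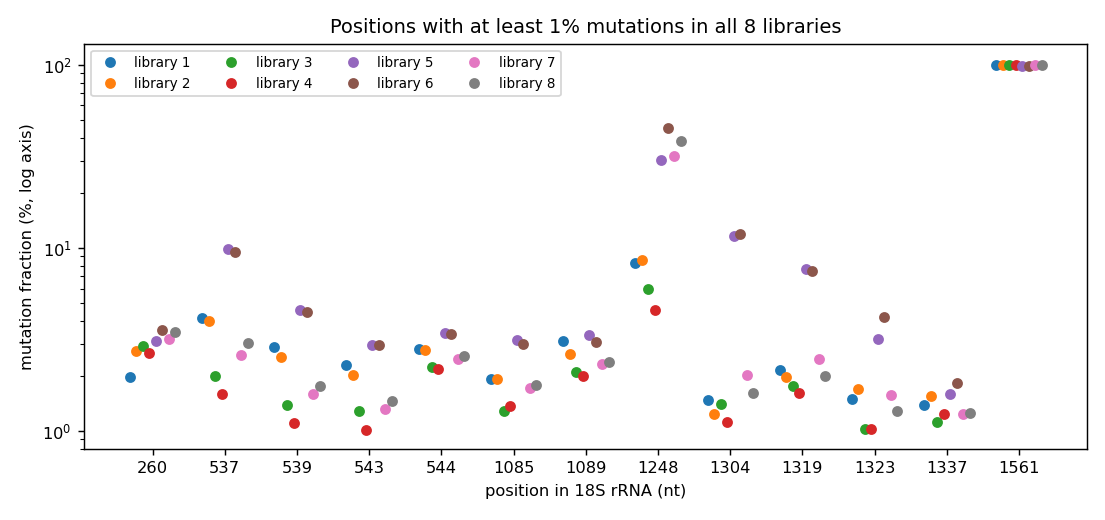
Mutation fraction in percent (log axis) at the 13 positions with at least 1% mutations in all 8 libraries, with 1 point per library. Libraries 5 and 6 sit highest at 9 of the 13, most clearly at 537, 1304 and 1319, while all libraries meet near 100% at 1561.

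Several of these sites lay close together. The 15-nt window with the highest mutation level, 532 to 546, had a mean mutation fraction of 1.99, 1.82, 1.02, 0.833, 3.45, 3.42, 1.11 and 1.24%, which is 5.48 to 14.1 times each library's median. All 15 of its positions exceeded that median in every library, while mean stops in the window were between 0 and 0.233%. In libraries 3 and 4 over 80% of stop values near 537 were exactly 0, so low stops there are also thinly measured. A separate stretch, 1082 to 1096, had mean mutations of 0.719 to 2.33%, with mean stops of 0.370 to 1.02%. The windows were picked as the highest, so their height is a description only.

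Stop fractions differed between libraries by at least 10 points at 36 positions, 2.03% of those measured. The range reached 5 points at 97 positions (5.46%) and 20 points at 16 (0.901%). At 22 of them the 2 highest values belonged to libraries 3 and 4, and at 18 of these 22 both exceeded 5% while the other 6 libraries stayed under 5%. The largest difference was at 595, with 0.103, 0.162, 53.2, 74.8, 12.2, 0.793, 0.437 and 0.663%. Position 1647 had stops of 0.277, 0, 32.8, 42.8, 3.09, 0.195, 0.152 and 0.0991%. At 669 they were 0.631, 1.45, 19.8, 31.7, 3.78, 2.93, 2.20 and 2.34%. At 595 and 1647 most other libraries were under 1%, while at 669 5 of the other 6 lay between 1.45 and 3.78%.

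Thin coverage went with most of the 36 positions. Of them, 34 lay where a library had over 25% zeros within 25 nt, in stops or mutations, and 2 did not. Of all 1776 positions, 1034 lay in such stretches. At 10 of the 22 positions, over 25% of the stop values within 25 nt were 0 in the highest library. Near 595 the shares of zeros were 62.7% in library 3 and 31.4% in library 4. Near 1647, 669 and 1109 they were 54.9, 49.0 and 82.4% in library 3, against 1.96, 9.80 and 31.4% in library 4. Near 269, 882, 979 and 1326 that share was at most 1.96% in the highest library, and stops in libraries 3 and 4 reached 9.27 and 20.7% (269), 15.9 and 21.1% (882), 12.8 and 13.2% (979), and 15.3 and 14.8% (1326). In the other 6 libraries they were at most 4.95% at these positions. Library 4 weighed most: without it 23 positions differed by 10 points, in place of 36.

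Other positions belonged to other libraries. At 518, stops were 64.3, 61.0, 20.3, 9.09, 29.9, 14.6, 3.60 and 3.51%, so libraries 1 and 2 were highest and libraries 7 and 8 lowest. At 507 the order turned: 1.88, 0.80, 0, 0, 5.22, 5.79, 49.8 and 50.7%. With 510, also led by libraries 7 and 8, these sites lie within 11 nt of each other, and the libraries strong at 507 and 510 were the weakest at 518. At 591 stops were 3.61, 3.29, 8, 19.1, 9.13, 12.1, 24.5 and 28.5%, again highest in libraries 7 and 8. Values of libraries 2, 3 and 4 at these sites rest on thin data. Within 25 nt of 518, 33.3, 56.9 and 58.8% of their stop values were 0, and 41.2, 62.7 and 35.3% near 591. Near 507 the share was 37.3% in libraries 3 and 4. The remaining libraries had at most 5.88% near 518. Libraries 1 and 2 led at 4 of the 36 positions, libraries 5 and 6 at 2, libraries 7 and 8 at 3, and no name pair held both highest values at 5. Of the 4 led by libraries 1 and 2, 3 (1573, 1574 and 1611) lay where 70.6 to 88.2% of nearby stop values were 0 in the highest library.

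**Figure D5:**
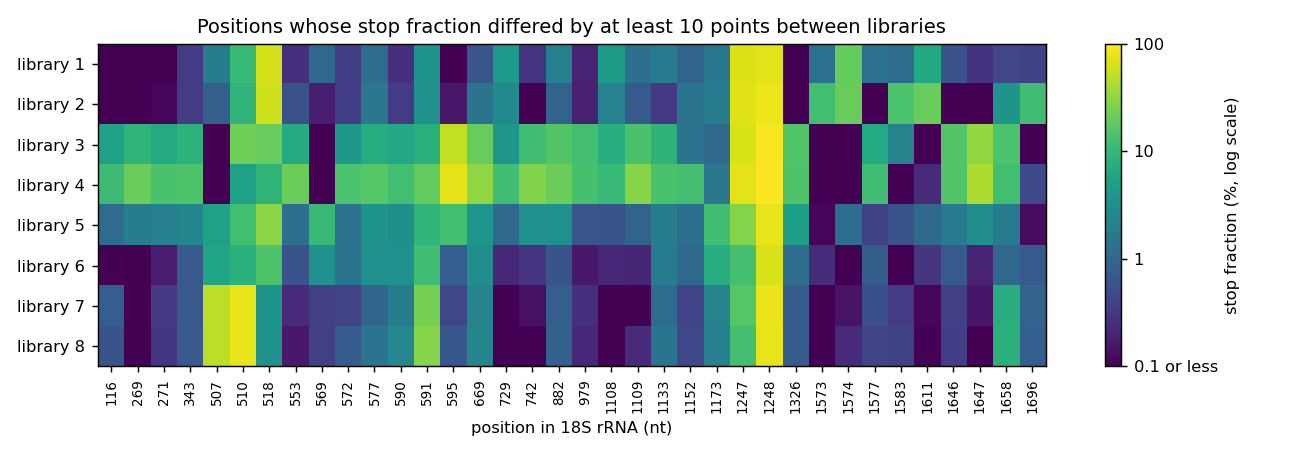
Stop fraction (colour, log scale in percent) in each library at the 36 positions where the highest and lowest library differed by at least 10 points. Libraries 3 and 4 are brightest at 22 positions, libraries 7 and 8 at 507, 510 and 591, and libraries 1 and 2 at 518, while 1248 is bright in every library.

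The DMS libraries that the table assigns to these controls were not used to choose the sites and could be read for the same order. At 21 of the 22 positions led by libraries 3 and 4, their DMS libraries were also the 2 highest of the 8 DMS libraries, as they were at 36% of all positions. The same held at all 4 positions of libraries 1 and 2 (9.52% of all positions), at all 3 of libraries 7 and 8 (10.5%) and at 1 of 2 of libraries 5 and 6 (4.9%). At 595 stops in the DMS libraries were 48.0 and 44.2% for libraries 3 and 4 and at most 0.784% for the other 6. Library 5, at 12.2% without DMS, had 0.666% there in its DMS library.

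Mutation fractions differed less. The range reached 10 points at 2 positions (0.113%), 1248 and 1304, 20 points only at 1248 (0.0563%), and 5 points at 19 (1.07%). Without library 2 the last count was 12, since 7 of the 19 rested on values of 5 to 7.14% in that library where 90.2 to 96.1% of nearby values were 0. Libraries 5 and 6 held the 2 highest values at 11 of the 19, and their DMS libraries did so at 11 of the 11, beside 55.4% of all positions. Libraries 1 and 2 did at 1648 and 1750, and their DMS libraries at 0 of these 2 (4.28% of all positions). At 295 mutations were 0.556, 0.658, 0.208, 0.231, 3.46, 6.33, 0.614 and 0.631%, and at 1573 only libraries 5 and 6 exceeded 1%, with 5.75 and 5.32%. The excess of this pair was general: both were above every other library at 973 positions, 54.8% of all, against 3.94% for libraries 1 and 2, 1.63% for 3 and 4 and 0.394% for 7 and 8. Over the 1032 positions with mutations above 0 in every library, the median ratio to the median of the other 6 was 2.37 for library 5 and 2.19 for library 6.

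For stops the pair most often on top was libraries 3 and 4, both above every other library at 536 positions, 30.2%. The same count was 44 (2.48%) for libraries 1 and 2, 165 (9.29%) for 5 and 6 and 174 (9.8%) for 7 and 8. Libraries 1 and 2 were both below every other library at 353 positions (19.9%), and libraries 3 and 4 at 105 (5.91%). The median stop fraction over all positions was 0.269% in library 4. In library 3 it was 0.157%, within the 0.0955 to 0.173% of the others. For mutations, libraries 7 and 8 were both below every other at 406 positions (22.9%). The pairs with the most positions on top thus differed between the readouts.

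The sites high in all libraries were compared between untreated cells and their matched DMS libraries, 8 pairs, with a two-sided exact sign-flip test adjusted over all 1776 positions by Benjamini-Hochberg. The smallest p that 8 pairs allow is 0.0078125. None of the 5 sites passed an adjusted p of 0.05, nor did any other position in either readout or direction (0 of 1776, 0%). With 8 pairs the smallest adjusted p was 0.0846 for stops and 0.123 for mutations, so the pairs could hardly give a call. A two-sided exact permutation test that ignores the pairing called none of the 5 sites, but 113 other positions for stops, 108 of them higher with DMS, and 35 for mutations, all higher. Both tests treat the 8 pairs or the libraries as independent. The cells were grown on duplicate plates, and the labels give 2 lettered samples for each kind of reverse transcription and treatment. The sources used here do not say which libraries share a plate. Libraries of the same plate are repeated readings of it and not independent, so the p-values of both tests may be too small. At an unadjusted p of 0.05, stops were higher with DMS at 232 positions (13.1%) and lower at 152 (8.56%), and mutations were higher at 249 (14%) and lower at 44 (2.48%).

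At 1247, stops with DMS were 55.0, 57.9, 64.1, 58.8, 11.1, 9.01, 12.8 and 9.89%. The mean difference from untreated was -9.06 points, with lower values in 8 of 8 pairs (exact sign-flip p = 0.0078125, adjusted 0.0846). At 1246 the mean difference was -3.66 points, with lower values in 6 of 8 pairs (exact p = 0.046875, adjusted 0.217). At 1248 it was -3.19 points, lower in 6 of 8 pairs (exact p = 0.046875, adjusted 0.217), and mutations there differed by 4.25 points, higher in 6 of 8 (exact p = 0.046875, adjusted 0.284). Because the sites were chosen for high untreated values, lower values with DMS can follow from that choice. At 510 the mean difference was -1.08 points, lower in 5 of 8 pairs (exact p = 0.640625, adjusted 0.852), and for mutations at 1561 it was -0.445 points, lower in 5 of 8 (exact p = 0.164, adjusted 0.544).

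An untreated SSIII library of the manganese experiment, made without manganese, was not used to choose any site. Its stop fraction was 74.1% at 1248, 76.6% at 1247, 6.22% at 1246 and 10.6% at 510, and its mutation fraction at 1561 was 98.9%. The values at 1248, 510 and 1561 lay inside the range of the 8 libraries, and those at 1247 and 1246 outside it. At 1249 it had 13.3% stops, above all 8 libraries. Its mutation fraction at 1248 was 7.45% and its stops at 518 and 595 were 42.5 and 0.284%.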

How the data were processed

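18S rRNA stops and mutations were read from 8 untreated libraries, their 8 DMS libraries and 1 further untreated SSIII library. The authors deposited both readouts as a fraction per position in a single table, printed here as percent. The tools named are cutadapt and Bowtie2, in the submitters' processing notes. Their versions, the reference, the rules for a stop or a mutation, the denominators and any filter are not given in the sources used here. How these rules treat reads at modified bases can shift a stop by 1 nt or move signal between readouts. The depth is unknown. The table's 12 other libraries, on another RNA or of the manganese experiment, were not used.

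Positions 1 to 1776 were used. A site was high at 5% or more in every library, and differing at a range of 10 points or more. Each library's value, the range and the median are given, with no test between libraries, since names do not give the enzyme. Named positions were the sites high in all, the 10 largest ranges, the 5 highest and 5 lowest mutation parts, neighbours within 2 nt of leading sites and members of counts of 5 or fewer; further positions were named after their values were seen. DMS and untreated libraries were paired as the table assigns controls, and p-values were adjusted over all positions, in place of the adjustment over tested sites first planned. The members and lists were chosen with earlier results of these data known. Scripts ran in Python 3.11.15 with SciPy 1.17.1 for tests, NumPy 2.4.6 and pandas 2.3.3 for tables, and Matplotlib 3.10.9 for plots, and were tested on simulated data. Alternatives were other thresholds, leaving out each library, leaving out stretches with over 25% zeros within 25 nt, moved positions and an unpaired test.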

Additional observations from a re-analysis of the deposited data

Results flagged for a closer look

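In 13 of 60 sets of 8 values examined, the highest library stood apart from the others by a gap larger than Dixon's 95% limit for 8 values, which chance alone passes in about 1 in 20 sets. Many sets were chosen for their range, so more than that share can follow from the choice.

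Library 4 stood apart for stops at 577 (16.4%), 742 (26.9%), 1109 (28.9%), 1244 (3.08%) and 1563 (0.330%), and for its median stop fraction over all positions (0.269%). Within 25 nt of 1109 and of 577, 31.4 and 49.0% of the stop values in library 4 were exactly 0, against 1.96% near 742. Library 2 stood apart for mutations of 6.25% at 1648, 1654 and 1655 and of 7.14% at 1750, where 90.2 to 96.1% of its mutation values within 25 nt were 0. Library 6 stood apart at 1249 (0.156%) and 1250 (0.0420%), and library 5 at 1560 (0.0129%), all low mutation fractions beside leading sites. The part of thin coverage in these values was not tested.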

How the results depend on the processing

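Of 130 alternatives of 10 results, 105 left the value alike, 25 moved it and 0 reversed it; the cause was not tested where none is given. Limits: depth is unknown, enzymes are not assigned, and 1034 of 1776 positions lie where a library has over 25% zeros. Leaving those stretches out gave 0 high stop sites, 0 high mutation sites, 2 differing stop sites, 1 differing mutation site, 1 shared position and 0 sites within range in the further SSIII library, and no mutation part, because only 742 positions remained and the leading sites were not among them. The median stop level was 0.101% over the first 800 positions. High stop sites numbered 7 at 2% and 10 with the highest value within 1 nt. High mutation sites numbered 3 at 2%, 2 in at least 7 of 8 libraries, 3 within 1 nt and 2 without library 4. Differing stop sites numbered 97 at 5 points, 16 at 20 points, 17 by second highest minus second lowest and 92 by log2 ratio; differing mutation sites 19, 1 and 15 at 5 points, 20 points and by log2 ratio. The mutation part was 13.1% at a sum of 2%, and 0.880% with the stop of the next position 5′, against 2.03%. Shared positions fell to 1 with 20 leading positions and to 1 with mutations moved by -1 or 1 nt, while moves of -2 or 2 nt gave 3. Leaving out each library gave median levels of 0.157 to 0.157% for stops and 0.129 to 0.152% for mutations, 4 to 4 high stop and 1 to 2 high mutation sites, 23 (without library 4) to 36 differing stop and 2 to 2 differing mutation sites, a part of 1.52 to 2.61%, 3 to 4 shared positions and 2 (without library 6) to 4 (without library 4) sites within range. With DMS, 0 to 0 of the high sites were called, which says nothing of stability, since 7 pairs can hardly reach a call. Without the pairing, an exact permutation test with no replicate block called 0 of these sites, but 113 positions for stops and 35 for mutations, where the paired test called 0. Leaving out libraries 2 and 3, chosen after the data were seen, moved no result beyond its limit.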

Other observations

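Library 5 was often next in stops at the positions that libraries 3 and 4 led. At the 21 positions other than 1248 where libraries 3 and 4 led, library 5 was the third highest at 15 positions, library 1 at 3, library 6 at 2, library 8 at 1 and libraries 2 and 7 at 0. Its stop fraction was a median of 14.7% of the mean of libraries 3 and 4, against 4.13% for library 6, the other of its name pair, and 2.70 to 4.39% for the remaining libraries. It exceeded library 6 at 18 of the 21, for example 1.89 against 0.0658% at 269, 3.31 against 0.284% at 742 and 4.95 against 1.19% at 1326. The DMS library assigned to library 5 was lower than library 5 at 21 of 21 of these positions, with a median stop of 0.666% against 1.89%, and was the highest of the 6 DMS libraries outside libraries 3 and 4 at 4 of 21. For the DMS library of library 6 that count was 3. The positions were chosen by the values of libraries 3 and 4, and no test was made. Over all positions the median stop fraction was 0.173% in library 5 and 0.147% in library 6. The shares of all positions with the same order were not counted, so the counts describe the chosen positions only. Why library 5 has these stops was not tested.

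The likeness of libraries to their name partners was as follows. Over 1776 positions, Spearman's rho of stops lay between 0.656 and 0.960 within the 4 name pairs (median 0.765) and between 0.384 and 0.875 in the other 24 pairs (median 0.611). For mutations it lay between 0.407 and 0.894 (median 0.550) and between 0.276 and 0.621 (median 0.425). By Pearson's r of stops every library was closest to its name partner. By Spearman's rho library 1 was closest to library 5 (0.809) and library 6 to library 8 (0.875). For mutations, library 1 was closest to library 7 (0.608), 2 to 3 (0.408) and 4 to 1 (0.489) by Spearman's rho, and libraries 1 and 4 were closest to each other by Pearson's r (0.994). Positions share the library and the RNA and are not independent. At 27 of the 36 differing stop positions the range of the 4 name-pair means was larger than the largest difference within a pair. The same held at 12 of the 19 mutation positions with a range of at least 5 points. These positions were chosen for a large range over the same libraries, and the share over all positions was not counted. The counts therefore describe the chosen positions only. Whether name pairs are enzymes is not given in the sources used here.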
